A study of Homo sapiens with 24 samples.

Results

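In the human neuroblastoma line SH-SY5Y, whose cells can be driven towards a neuron-like state, 110 of 20589 array probes made up a set with higher signal under OE of miR-125b in every setting and little difference between scrambled cells with and without RA. OE is read here as overexpression, and RA is all-trans retinoic acid. The members were selected on measured values. The authors' normalized intensities under 50 were raised to 50 and put on the log2 scale, and 9069 probes with a highest group mean of at least 7 were kept. A member had OE minus scrambled of at least 0.7 in each of 3 settings, without RA on day 2, without RA on day 4 and with RA on day 2. Its RA difference in scrambled cells lay within 0.4 of 0, and its KD (knockdown) minus scrambled difference with RA was above -0.25. All 3 OE bounds were met by 165 probes, of which 54 missed the RA bound, 2 missed the KD bound and 1 of these missed both, so 55 were dropped.

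The study measured total RNA on 24 one-colour Illumina arrays in 8 groups of 3, all of SH-SY5Y cells. The groups without RA were RA- SCR D2, RA- SCR D4, RA- OE D2 and RA- OE D4, where SCR is the scrambled control and D2 and D4 are day 2 and day 4. Those with RA, all on day 2, were RA+ SCR D2, RA+ KD D2, RA+ OE D2 and RA+ OE+KD D2, the last combining both manipulations. The source names write DP where the titles write OE and do not explain it, so every OE value rests on the titles. Neither KD nor OE+KD has arrays without RA or on day 4. The labels used here do not state the construct or oligonucleotide, its delivery, the RA dose or whether replicates were separate cultures. The p-values thus reflect array-to-array spread within groups of 3, which could be technical.

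MicroRNAs are short RNAs that guide Argonaute proteins to messenger RNAs, mostly by pairing of the seed near their 5′ end, and pairing usually lowers the level or the translation of the target. A direct target is therefore usually lowered when its microRNA is in excess, and probes that are higher under OE are measured here without a link to direct pairing. miR-125b is abundant in brain, and RA is a standard differentiation agent for neuroblastoma cells. The mature miR-125b-5p is shown because it is the manipulated molecule, with its seed (bases 2 to 8 from the 5′ end) in capitals, from RefSeq on GRCh38.p14.
hsa-miR-125b-5p: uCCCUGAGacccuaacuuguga
The same 22 bases come from MIR125B1 at chr11:122099809-122099830 on the minus strand and from MIR125B2 at chr21:16590253-16590274 on the plus strand.

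No table used here links the Illumina probe IDs to genes, so members are named by ID, and their genes, functions and cell type markers were not analysed. For the same reason no value here checks the OE and KD labels, and miR-125b itself was not analysed. The mean scanner intensity per array ranged from 617.8 to 1134.2, and replicate arrays correlated at r = 0.978 to 0.997 over probes. The array RA+ OE D2 replicate 2 stood farthest from its group, with a residual SD of 0.226 against 0.0743 for the array nearest to its group. Precision is limited by the 3 arrays per group. In such bulk RNA, fewer cells of a type and less RNA per cell cannot be told apart.

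On the scale that chose them, the members' OE minus scrambled difference without RA on day 2 had a median of 1.04 and ran from 0.70 to 2.24. On day 4 without RA the median was 1.09 and the highest 5.34, and with RA on day 2 the median was 1.12 and the highest 2.31. The same medians over the 9069 kept probes were -0.02, -0.04 and -0.02. A difference of at least 1, a doubling on this scale, was reached by 63 members on day 2, by 71 on day 4 and by 71 with RA. The largest of a member's 3 differences fell on day 4 in 52 members, with RA in 43 and on day 2 without RA in 15. These values chose the members and are a description. RA minus no RA in scrambled cells ran from -0.39 to 0.39 with a median of -0.07.

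The KD bound was set from below only, and most members lay far above it. KD minus scrambled with RA had a median of 0.59 on the rule's scale, ran from -0.18 to 2.01, and was above 0 in 102 of 110 members. It reached 0.7 in 48 members, against 220 of all 9069 kept probes, and reached 1 in 21. Over the kept probes its median was -0.02, and counts above 0 or of at least 1 were not made. KD and OE, labelled as opposite manipulations, were thus both above the scrambled control for most of the set. Both differences with RA subtract the same 3 scrambled arrays, and the rule used both, so no test is given.

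The threshold cut through a continuous range. Just inside lay ILMN_1388, whose smallest OE difference was 0.7008, and ILMN_22730 at 0.7019. Just outside lay ILMN_8178 at 0.6955 and ILMN_28637 at 0.6909. A bound of 0.6 gave 168 probes and a bound of 0.8 gave 78. Some scrambled levels were at the floor of 50 on all 3 arrays, in 3 members without RA on day 2, 5 on day 4 and 7 with RA, where the difference is a lower bound. ILMN_13364 was at or under the floor on all 9 scrambled arrays.

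The OE differences were also read in arrays left out of the choice. The rule was applied to the arrays of the other 2 replicate numbers, which chose 108, 110 and 104 probes for left-out numbers 1, 2 and 3. In the left-out arrays the chosen probes' median OE difference without RA was 1.07, 0.98 and 0.96 on day 2 and 1.04, 1.19 and 1.09 on day 4. With RA it was 1.02, 1.23 and 1.08. On day 2 without RA, 97, 93 and 85 of the chosen probes again reached 0.7, where 4.53%, 3.24% and 3.44% of all kept probes did. On day 4 it was 94, 101 and 95, where 8.22%, 9.75% and 6.59% of all kept probes did. With RA it was 97, 94 and 91, where 5.33%, 10.5% and 4.91% of all kept probes did. The left-out median of KD minus scrambled was 0.59, 0.59 and 0.60, with -0.02, -0.02 and 0.01 over all kept probes. It reached 0.7 in 44, 41 and 43 chosen probes, where 2.72%, 2.84% and 3.22% of all kept probes did. The height of the set under OE, and under KD with RA, was therefore of about the same size in arrays the choice had not used.

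**Figure D1:**
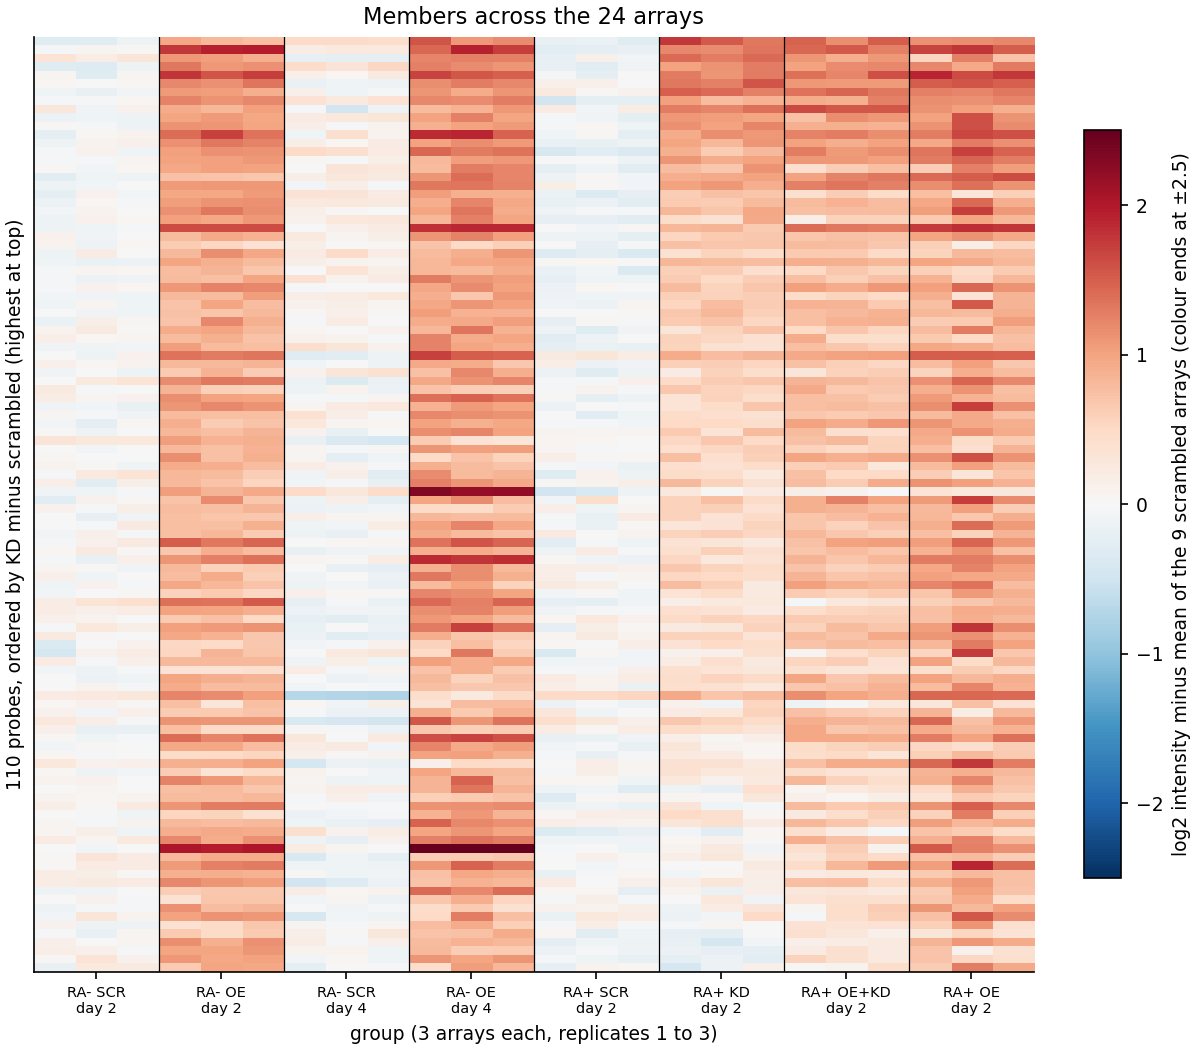
Each row is 1 of the 110 members and each column 1 of the 24 arrays, grouped by condition; colour is the log2 value minus that probe's mean over the 9 scrambled arrays, with the colour scale ending at 2.5 in either direction. Rows are ordered by KD minus scrambled. Scrambled arrays stay near 0, the OE arrays are high throughout, and the KD arrays grade from near 0 to as high as OE.

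For all later values the scanner intensities were background corrected, quantile normalized and log2 transformed, with an offset of 50 that compresses differences of dim probes. On this scale the set was dim in scrambled cells and near the middle of the array under OE. The median member level was 8.27 in RA- SCR D2, 8.38 in RA- SCR D4 and 8.28 in RA+ SCR D2. It was 9.17 in RA- OE D2, 9.42 in RA- OE D4 and 9.34 in RA+ OE D2, with RA+ KD D2 at 9.0 and RA+ OE+KD D2 at 9.15. The median of all 10691 probes tested was between 9.18 and 9.19 in every group. Below it lay 75 members in RA- SCR D2 and 55 in RA- OE D2. The highest of a member's 8 group means was RA- OE D4 in 54 members, RA+ OE D2 in 32, RA- OE D2 in 17, RA+ OE+KD D2 in 4 and RA+ KD D2 in 3, and a scrambled group in 0. The rule required OE above SCR in all 3 settings. The rise from SCR to OE and the 0 for scrambled groups thus largely follow from the choice. The highest group was not counted over all probes.

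Single arrays gave the same order of groups. The median over members of the value minus the mean of the 9 scrambled arrays was 0.93, 0.91 and 0.88 on the RA- OE D2 arrays and 0.98, 1.08 and 0.97 on the RA- OE D4 arrays. It was 0.90, 1.04 and 0.88 on the RA+ OE D2 arrays, with replicate 2 the highest of the 3. It was 0.74, 0.69 and 0.68 on the RA+ OE+KD D2 arrays and 0.48, 0.50 and 0.46 on the RA+ KD D2 arrays. On the 9 scrambled arrays it lay between -0.05 and 0.02. The array medians of the 4 groups with RA did not overlap. The rule used the SCR, KD and OE arrays, so the height of OE over SCR was fixed by the choice. The same medians were not made over all probes, so these are a description.

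The 4 members with the highest mean OE difference were ILMN_13364, ILMN_28190, ILMN_4343 and ILMN_7759. ILMN_13364 read 6.53, 6.45 and 6.51 in RA- SCR D2, 8.55, 8.48 and 8.55 in RA- OE D2, 6.71, 6.59 and 6.51 in RA- SCR D4, and 11.28, 11.09 and 11.14 in RA- OE D4. With RA it read 6.48, 6.51 and 6.41 in SCR, 6.61, 6.75 and 6.44 in KD, 8.06, 7.78 and 7.67 in OE, and 6.94, 7.14 and 6.60 in OE+KD. Its OE arrays stood above every other array, those of day 4 far above the rest, while KD overlapped SCR and OE+KD overlapped KD.

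ILMN_28190 read 7.27, 7.14 and 7.45 in RA- SCR D2, 8.43, 8.58 and 8.70 in RA- OE D2, 7.39, 7.34 and 7.51 in RA- SCR D4, and 9.18, 9.11 and 9.16 in RA- OE D4. With RA it read 7.36, 7.24 and 7.16 in SCR, 7.85, 7.58 and 7.68 in KD, 8.18, 8.01 and 8.16 in OE+KD, and 8.63, 8.60 and 8.47 in OE. The 4 RA groups stood in that order without overlap.

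ILMN_4343 read 8.04, 8.15 and 8.12 in RA- SCR D2, 9.86, 10.04 and 10.04 in RA- OE D2, 8.27, 8.34 and 8.33 in RA- SCR D4, and 9.52, 10.02 and 9.82 in RA- OE D4. With RA it read 7.81, 7.84 and 7.90 in SCR, 9.29, 9.27 and 9.43 in KD, 9.53, 9.62 and 9.34 in OE+KD, and 9.77, 9.88 and 9.60 in OE. All KD, OE+KD and OE arrays lay more than a log2 unit above SCR, with KD overlapping OE+KD and OE+KD overlapping OE.

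ILMN_7759 read 8.49, 8.12 and 8.49 in RA- SCR D2, 10.21, 9.98 and 10.14 in RA- OE D2, 8.54, 8.46 and 8.65 in RA- SCR D4, and 10.10, 9.97 and 9.91 in RA- OE D4. With RA it read 8.38, 8.19 and 8.43 in SCR, 9.72, 9.51 and 9.71 in KD, 9.79, 9.64 and 10.02 in OE+KD, and 10.33, 10.05 and 10.18 in OE. KD and OE+KD overlapped, and every OE array lay above every OE+KD array.

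**Figure D2:**
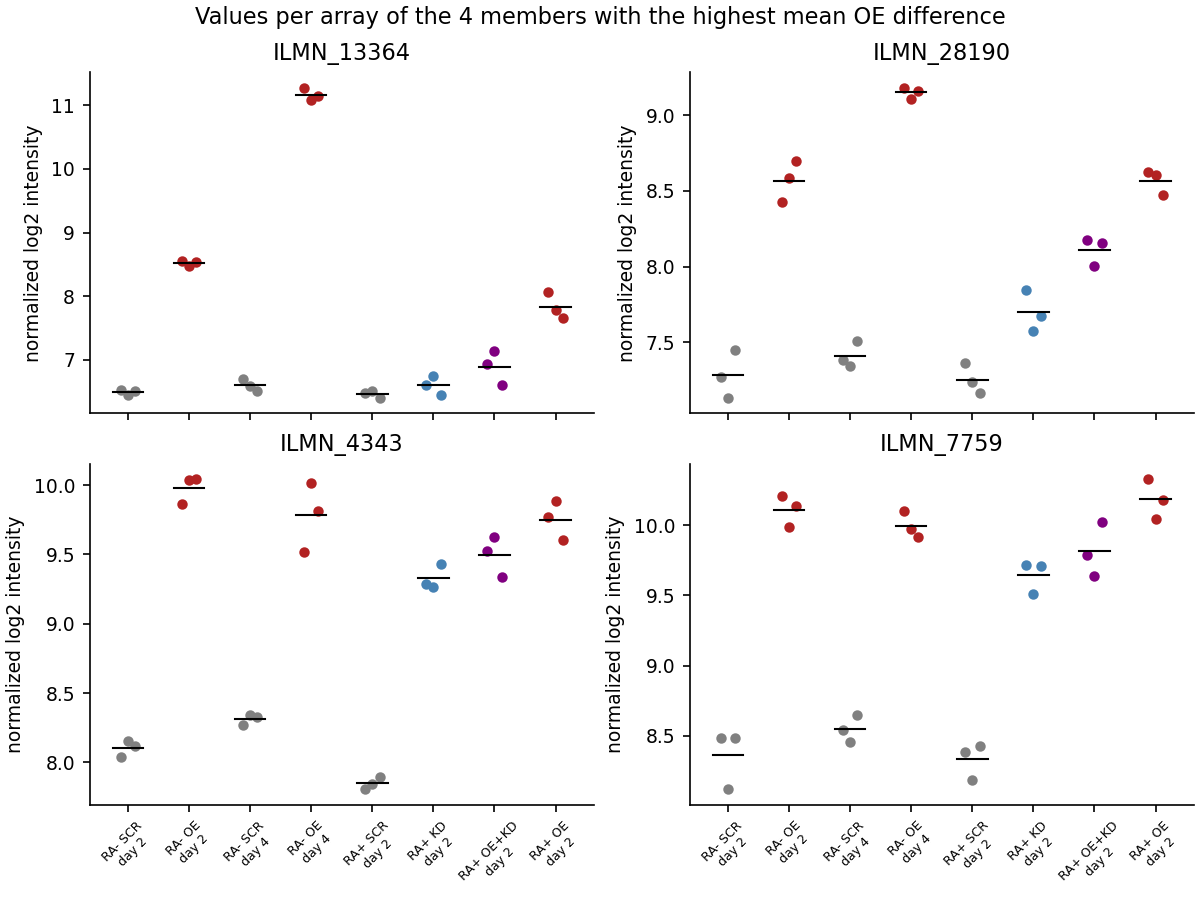
Log2 value of the 4 members with the highest mean OE difference in each of the 8 groups; each point is 1 array and each bar the mean of 3. OE groups stand above their scrambled groups in all 4 panels. ILMN_13364 reaches 11.28 under OE on day 4 and stays at or under 7.14 with KD or OE+KD. Under KD, ILMN_4343 and ILMN_7759 lie far above SCR and overlap OE+KD, but stay below every RA+ OE D2 array.

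The OE+KD arrays took no part in choosing the members. Adding KD to OE left almost the whole set above the scrambled control, so the first comparison asked how far OE+KD stood from SCR with RA. In limma, with the adjusted p under 0.05 used for all calls, 103 of 110 members were higher in OE+KD and 0 lower, where 14.1% of all 10691 probes tested were called higher and 15% lower. No member's OE+KD mean lay under its SCR mean, so the count of lower members is 0 at any threshold. The median difference was 0.72, ranging from 0.16 to 1.65, with 21 members at 1 or more, and the median over all probes was 0.00. In 105 members all 3 OE+KD arrays lay above all 3 scrambled arrays. The same count over all probes was not made, so this one is a description. The scrambled arrays took part in the choice, which favours probes low on them; in the left-out arrays the median was 0.87, 0.84 and 0.87 on the rule's scale.

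The largest of these differences was that of ILMN_4343, at 1.65 (SE 0.10, limma adjusted p = 2.72e-11), or 3.13-fold. ILMN_137648 read 8.82, 8.86 and 8.72 in RA+ SCR D2 and 10.49, 10.18 and 10.54 in RA+ OE+KD D2, groups that were far apart. It was 1.60 higher (SE 0.12, limma adjusted p = 2.15e-10), and its KD arrays, at 10.79, 10.55 and 10.34, were as high as those of OE+KD. At the other end, ILMN_4591 read 7.44, 7.58 and 7.47 in SCR and 7.46, 7.63 and 7.86 in OE+KD, which overlapped, with a difference of 0.16 (SE 0.15, limma adjusted p = 0.473). ILMN_18947 differed by 0.19 (SE 0.097, limma adjusted p = 0.159). ILMN_13364, the member with the highest OE difference, stood 0.43 above SCR in OE+KD (SE 0.11, limma adjusted p = 0.00513). That call was lost on the authors' values, where the difference was 0.02, and without OE+KD replicate 2 (adjusted p = 0.0542).

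The next comparison asked whether KD moved the OE level, in RA+ OE+KD D2 against RA+ OE D2. Most members were lower with KD added, by a modest amount. In limma 44 of 110 members were called lower and 2 higher, where 8.42% of all probes tested were called lower and 9.16% higher. The median difference was -0.25, the middle members lay between -0.41 and -0.13, the range was -0.94 to 0.57, and 96 were below 0, with a median of 0.00 over all probes. The OE arrays took part in the choice, which favours probes high on them. In the left-out arrays the median was -0.22, -0.45 and -0.24 on the rule's scale, with 0.03, -0.01 and 0.04 over all kept probes. The difference was below 0 in 85 of 108, 87 of 110 and 84 of 104 chosen probes, a count not made over all kept probes. The -0.45 was read with RA+ OE D2 replicate 2. Without RA+ OE D2 replicate 2, the array that stood farthest from its group, the median was -0.20 and 33 members were lower. A fit to these 2 groups alone, whose spread is that of 6 arrays, called 3 lower and 1 higher. Over all probes tested it called 22 lower and 82 higher. The like fit for OE+KD minus scrambled called 105 members higher. Residual SDs were 0.162, 0.226 and 0.138 on the RA+ OE D2 arrays and 0.123, 0.0945 and 0.110 on the RA+ OE+KD D2 arrays. The main fit shares 1 spread over all 8 groups, so its SEs and adjusted p may be too small for this comparison.

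ILMN_13364 had the largest difference, -0.94 (SE 0.11, limma adjusted p = 5.05e-06), with no overlap of the arrays. ILMN_12040 read 10.98, 11.79 and 11.42 in OE and 10.19, 10.68 and 10.84 in OE+KD, so that all OE arrays were the higher ones but each group spread widely. It was -0.83 (SE 0.20, limma adjusted p = 0.00593), a call lost in the fit to these groups alone (adjusted p = 0.0894) and without OE+KD replicate 1 (adjusted p = 0.0518), and its OE+KD arrays overlapped those of SCR, at 10.08, 10.51 and 10.43. ILMN_28190 fell by 0.45 (limma adjusted p = 0.00197) and ILMN_7759 by 0.37 (limma adjusted p = 0.0236). In the fit to these groups alone their adjusted p was 0.0769 and 0.164. ILMN_7759 also did not pass on the authors' values (adjusted p = 0.0668) or without OE replicate 1, OE+KD replicate 1 or OE+KD replicate 2 (adjusted p = 0.0726 to 0.125). ILMN_4343, at -0.26, did not pass (limma adjusted p = 0.0848, or 0.0446 with the replicate block).

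Against the direction of the others, ILMN_16678 read 9.34, 9.24 and 9.11 in OE, 9.86, 9.77 and 9.77 in OE+KD and 9.49, 9.44 and 9.59 in KD. Its OE+KD arrays lay above all OE and KD arrays, by 0.57 against OE (SE 0.11, limma adjusted p = 0.00109). ILMN_10426 read 7.98, 7.57 and 7.92 in OE and 8.19, 8.17 and 8.07 in OE+KD, without overlap. Its difference of 0.32 (SE 0.099, limma adjusted p = 0.0269) was 0.19 without RA+ OE D2 replicate 2, whose value was the lowest of the 3, and then did not pass (adjusted p = 0.209). It also did not pass with median scaling, no filter, the 2 groups alone, or without OE+KD replicate 1 or 2, with adjusted p from 0.0549 to 0.211.

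**Figure D3:**
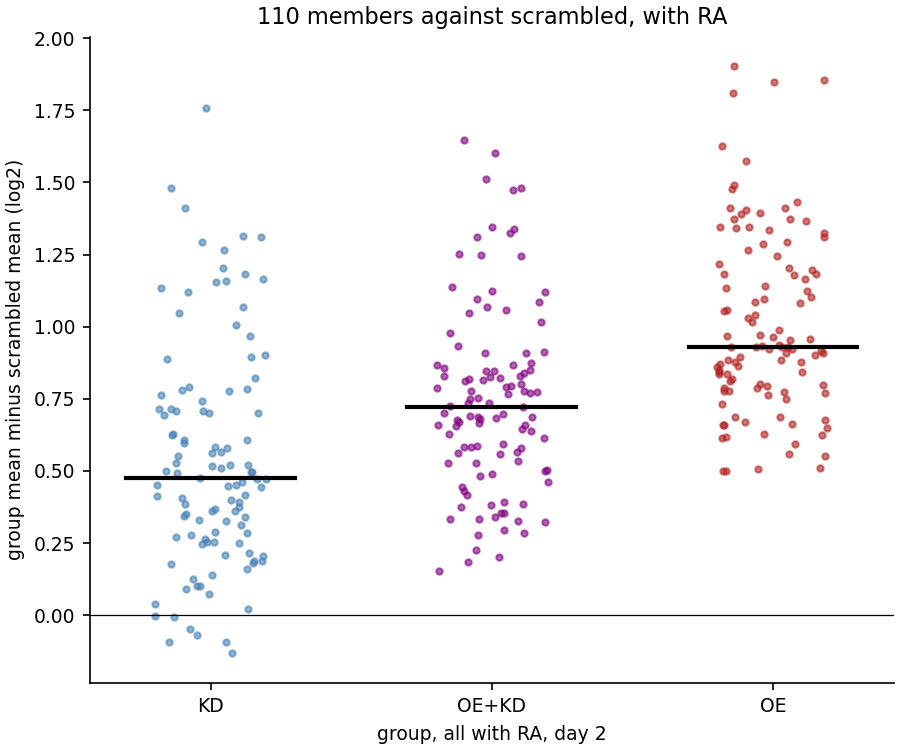
Difference from scrambled with RA (log2) of the 110 members under KD, OE+KD and OE; each point is 1 member and each bar the median. All 3 groups use the same scrambled arrays. The medians step from 0.47 for KD to 0.72 for OE+KD and 0.93 for OE.

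Placed between SCR and OE, both with RA, OE+KD lay between their means in 96 members and above OE in 14. Its difference from SCR was a median of 74.8% of the OE difference, with the middle members between 61.5% and 86.4%. KD alone lay at a median of 51.1% of the OE difference, with the middle members between 32.8% and 76.3%. The order SCR, KD, OE+KD, OE from low to high held in 75 members. KD was above OE+KD in 17 and above OE in 6. These shares use the same scrambled arrays and the OE difference of the rule, so they are a description.

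OE on top of KD was compared in RA+ OE+KD D2 against RA+ KD D2, groups of which the first was not used by the rule and the second was bounded only from below. In limma 26 of 110 members were higher with OE added and 1 lower, where 3.59% of all probes tested were called higher and 5.24% lower. The median was 0.21 and 93 members were above 0, with 0.01 over all probes. Without RA+ KD D2 replicate 3 the call count was 15 higher and 0 lower and the median stayed 0.21, and with median scaling it was also 15 and 0. With the replicate block it was 43 and 1, and deviations of same-numbered arrays correlated at 0.08 to 0.22 in this contrast. In the left-out arrays the median was 0.26, 0.22 and 0.22 on the rule's scale.

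ILMN_10129 read 10.43, 10.30 and 10.42 in KD, 11.24, 11.23 and 11.19 in OE+KD and 11.55, 11.27 and 11.64 in OE, a rising order without overlap. It was 0.83 higher in OE+KD than in KD (SE 0.091, limma adjusted p = 8.33e-07). ILMN_138605 read 7.58, 7.55 and 7.80 in KD and 8.04, 8.40 and 8.63 in OE+KD, also without overlap, with 0.71 (SE 0.15, limma adjusted p = 0.00273). In both, KD lay near SCR, at 10.08, 10.11 and 10.17 for the first and 7.57, 7.51 and 7.55 for the second.

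The reverse order was seen in ILMN_3625, which read 8.68, 8.62 and 8.93 in KD and 8.45, 8.42 and 8.42 in OE+KD. It fell by 0.32 (SE 0.079, limma adjusted p = 0.011), and without KD replicate 3, its highest KD array, it did not pass (adjusted p = 0.10). It also did not pass with median scaling (adjusted p = 0.0545) or in the fit to both groups alone (adjusted p = 0.0617). ILMN_24376 read 8.20, 8.06 and 8.19 in KD, 7.89, 7.70 and 7.88 in OE+KD and 7.33, 8.04 and 7.50 in OE. Its KD arrays were the highest of the 3 groups, and OE+KD minus KD was -0.33 (SE 0.12, limma adjusted p = 0.0899).

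Members also differed among themselves in how they stood under KD. Split at values chosen after they were seen, 34 members had a KD difference of at least 0.7 on the fitted scale, 51 lay from 0.25 to 0.7 and 25 lay under 0.25. Their median OE+KD minus OE was -0.19, -0.23 and -0.43, in the same order, and 10, 17 and 17 of them were among the 44 called lower. OE+KD stood at a median of 86.3%, 74.3% and 50.8% of the OE difference. These shares and the split both use the 3 RA+ SCR D2 arrays, and the rule used the KD and OE differences, so they are a description. Their median OE difference with RA was 1.20, 0.92 and 0.84, and their median level in scrambled cells with RA was 8.67, 8.09 and 8.01. Over the 110 members KD minus SCR correlated with OE+KD minus OE at r = 0.41, with 0.14 over all probes tested. The 2 differences share no array, but the points share the arrays of their groups. The rule bounded KD minus SCR and OE minus SCR, and so used the SCR, KD and OE arrays. The r of the members is thus a description and is not read against that of all probes.

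**Figure D4:**
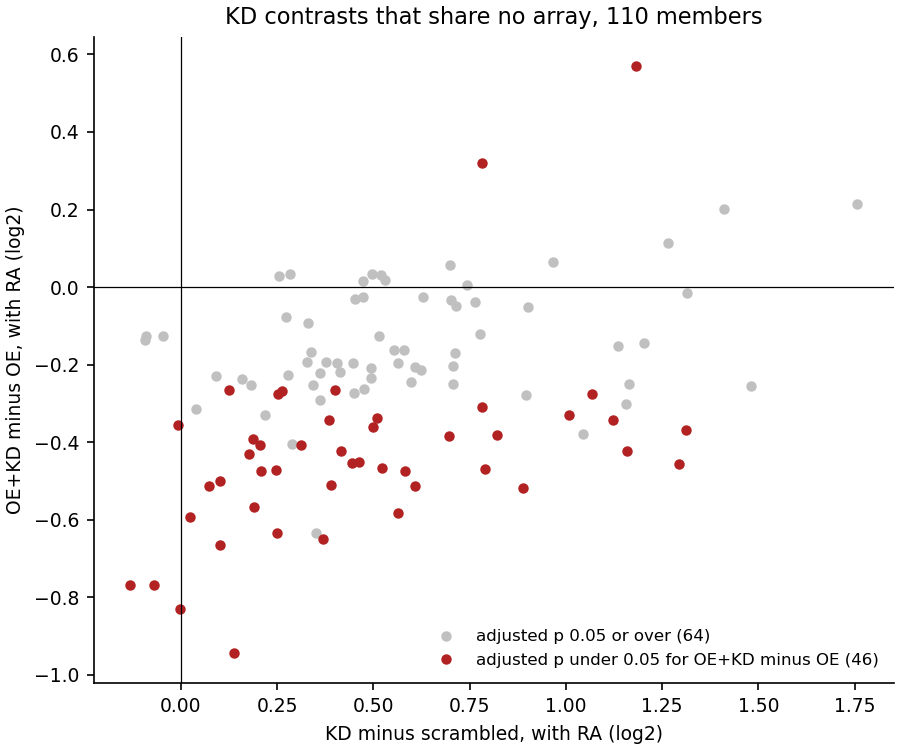
KD minus scrambled (x, log2) against OE+KD minus OE (y, log2), both with RA, for the 110 members; marked points are the 46 called in OE+KD minus OE. Most points lie below 0 on the y axis, and the lowest are at the left, led by ILMN_13364 at -0.94.

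A set chosen from the same values by the mirrored rule is given beside these counts as a description. It held 222 probes that were lower under OE in the same 3 settings, of which 190 were called lower in OE+KD than in SCR and 0 higher, with a median of -0.53. In OE+KD minus OE, 146 of the 222 were called higher and 0 lower, with a median of 0.39. In OE+KD minus KD, 123 were lower and 1 higher. Of all probes tested, 15% were called lower in OE+KD than in SCR. The share called higher in OE+KD minus OE was 9.16%, and that called lower in OE+KD minus KD was 5.24%. The choice of each set favours its direction in the first comparison through the scrambled arrays and in the second through the OE arrays. OE+KD minus KD holds neither, but the KD arrays also took part in the choice. KD minus SCR was bounded only from below for the members and only from above for the mirrored set. Each bound favours a smaller difference between OE+KD and KD.

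Whether the OE difference depended on the day was tested as OE minus SCR on day 4 minus the same on day 2, without RA. All 4 groups took part in choosing the members, by the same bound on both days, so the counts and p-values of this comparison are a description and are not read against all probes. In limma 18 members had a larger and 1 a smaller OE difference on day 4, where 5.86% of all probes tested were called larger and 6.99% smaller. The median was 0.10. In arrays left out of the choice the median was -0.01, 0.26 and 0.16 on the rule's scale for left-out numbers 1, 2 and 3, so its sign was not the same in all 3. With median scaling 30 were larger and 1 smaller, but that scaling moved the median of all probes by 0.20. Without RA- SCR D2 replicate 3, or without RA- OE D4 replicate 1, 11 were larger, and with the replicate block 21 were larger and 4 smaller. Day 4 minus day 2 of these 18 had a median of 0.38 in OE, against -0.14 in SCR, where 4 of them were called lower and 1 higher. The 18 were called for a larger change in OE than in SCR, so that order is fixed by the choice.

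Of the members, ILMN_13364 showed the largest change with the day. Its OE arrays averaged 8.52 ± 0.04 (SD, n = 3) on day 2 and 11.17 ± 0.10 on day 4, while its scrambled arrays were at or under the floor on both days. OE minus SCR is therefore a lower bound on each day, 2.03 and 4.57 as fitted, and their difference of 2.54 (SE 0.16, limma adjusted p = 9.79e-11) depends on the scale, with 3.10 on the authors' values. ILMN_13668 read 9.25, 9.06 and 9.15 in RA- OE D2 and 10.51, 10.40 and 10.42 in RA- OE D4, with 8.12, 8.10 and 8.17 and then 8.68, 8.49 and 8.66 in SCR. It was higher on day 4 in both, and more so in OE, by 0.81 (SE 0.13, limma adjusted p = 0.000112). ILMN_28190 differed by 0.45 (limma adjusted p = 0.025), a call that 7 of the alternatives lost, with adjusted p up to 0.0869. ILMN_4343, at -0.41, did not pass (limma adjusted p = 0.0654, or 0.0317 with the replicate block).

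ILMN_5447 was the member with a smaller OE difference on day 4. It read 9.33, 9.10 and 9.15 in RA- OE D2 and 9.26, 9.19 and 9.12 in RA- OE D4, which overlapped. In SCR it read 7.71, 7.69 and 7.88 on day 2 and 8.47, 8.33 and 8.52 on day 4, so the scrambled level was the one that differed. The OE difference went from 1.44 to 0.75, by -0.69 (SE 0.14, limma adjusted p = 0.00187). ILMN_27339 read 9.13, 8.77 and 8.84 and then 8.45, 8.65 and 8.37 in OE, and its change of -0.47 did not pass (limma adjusted p = 0.0782).

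**Figure D5:**
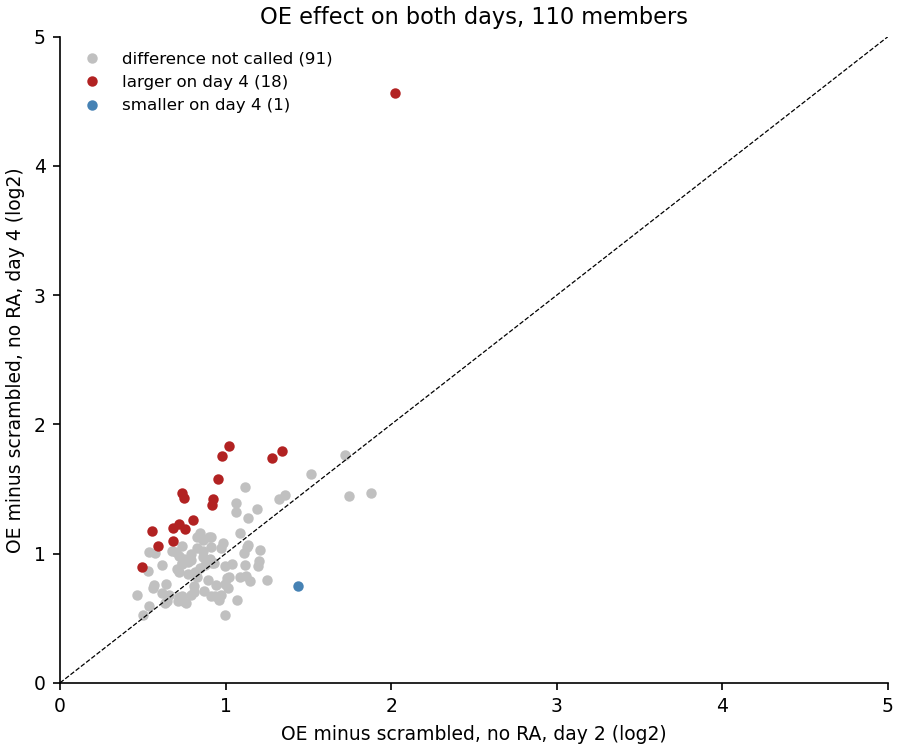
OE minus scrambled on day 2 (x, log2) against the same on day 4 (y, log2), without RA, for the 110 members; colours mark the 18 with a larger and the 1 with a smaller difference on day 4, and the 91 not called. ILMN_13364 stands apart at 4.57 on day 4.

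Whether the OE difference on day 2 depended on RA was tested in the same way. All 4 groups of this comparison also took part in choosing the members, which bounded both OE differences from below and the scrambled RA difference on both sides, so it too is a description. In limma 2 members had a larger and 1 a smaller OE difference with RA, where 0.468% of all probes tested were called larger and 0.271% smaller. At an unadjusted limma p under 0.05 there were 18 members, a count that was not made over all probes. The median was 0.09, or 0.03 without RA+ OE D2 replicate 2. In the left-out arrays the median was -0.02, 0.20 and 0.13 on the rule's scale. ILMN_25961 read 9.17, 9.29 and 9.08 in SCR and 10.23, 10.33 and 10.32 in OE without RA, and 8.79, 8.93 and 8.83 in SCR and 10.53, 10.91 and 10.67 in OE with RA. With RA its SCR arrays were lower and its OE arrays higher, a change of 0.74 (SE 0.14, limma adjusted p = 0.00557). ILMN_6862 read 8.13, 8.28 and 8.26 in SCR and 9.11, 9.11 and 9.05 in OE without RA, and 8.26, 8.42 and 8.31 in SCR and 9.80, 9.90 and 10.01 in OE with RA. Its change of 0.71 (SE 0.13, limma adjusted p = 0.00334) lay mostly in the OE arrays.

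ILMN_13364 was lower under OE with RA, at 7.84 ± 0.21 (SD, n = 3), than under OE without RA on day 2, with the scrambled arrays of both at or under the floor. Both OE differences are lower bounds, and the fitted change of -0.65 (SE 0.16, limma adjusted p = 0.0486) depends on the scale, with -0.89 on the authors' values. That call was lost in 15 alternatives, with adjusted p from 0.0563 to 0.169. ILMN_8399 changed by -0.43 (limma adjusted p = 0.39). For the other members a difference of the OE effect between RA and no RA was not detectable with 3 arrays a group.

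Culture time itself was read in scrambled cells, day 4 against day 2 without RA, a comparison the rule did not use, though both groups' arrays took part in it. In limma 11 members were higher on day 4 and 11 lower, where 5.79% of all probes tested were called higher and 6.51% lower. The median was 0.03. Leaving out single arrays gave 5 to 8 higher and 8 to 12 lower, with 5 higher without RA- SCR D4 replicate 1, 6 without RA- SCR D2 replicate 2 and 6 without RA- SCR D2 replicate 3. ILMN_137648 read 8.71, 8.73 and 8.89 on day 2 and 9.50, 9.49 and 9.45 on day 4, and was 0.70 higher (SE 0.12, limma adjusted p = 0.00021). ILMN_5447 was 0.68 higher (SE 0.099, limma adjusted p = 4.35e-05).

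A bright and a dim member were among the lower ones. ILMN_27575 read 11.64, 11.68 and 11.71 on day 2 and 10.71, 10.69 and 10.67 on day 4, and fell by 0.99 (SE 0.083, limma adjusted p = 1.74e-08). Its OE arrays read 12.64, 12.62 and 12.46 on day 2 and 11.87, 11.68 and 11.91 on day 4, so OE on day 4 lay near the scrambled level of day 2. ILMN_19761 read 7.74, 7.70 and 7.70 on day 2 and 7.23, 7.06 and 6.99 on day 4, and fell by 0.62 (SE 0.10, limma adjusted p = 0.000261).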

How the data were processed

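The authors deposited a table of scanner intensity values, 1 per probe and array, and a second table of intensity values they had normalized, by a method the sources used here do not state. Negative scanner values made up 14.3% to 17.6% of each array, which shows that a background had been taken off, and 37.8% to 40.1% of the normalized values stood at 20. A deposited table of fold changes was not used. Detection p-values were not used here, and columns without a sample numbered 0. Members were chosen on the normalized values. Members and lists were chosen with earlier results of these data known.

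For the tests, limma 3.58.1 in R 4.3.3 was used for normexp background correction of the scanner intensities (offset 50), quantile normalization and log2 transformation. Probes above their array's median on all 3 arrays of at least 1 group were tested, 10691 or 51.9%, which kept all 110 members. One model with a mean per group was fitted to all 24 arrays (lmFit, eBayes), with Benjamini-Hochberg adjustment over all tested probes, separately in each of 6 contrasts. Fold changes and SE are on this scale. The script was tested on simulated data. Tables and plots used Python 3.11.15, pandas 2.3.3, NumPy 2.4.6 and matplotlib 3.10.9.

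Named members were the 4 highest in mean OE difference and, per contrast, the 2 with the largest and the 2 with the smallest difference. Replicate numbers come from the titles. Deviations of same-numbered arrays correlated at 0.108 or more in every pair for OE+KD minus OE, at 0.133 or more for the day contrast and at 0.230 or more for scrambled day 4 minus day 2, and in at least 1 pair under 0.1 for the other contrasts. Alternatives were another normexp offset of 16, median scaling, the authors' values, a stricter and no filter, the replicate block, a fit to the groups compared, and leaving out each array. Reading OE+KD minus KD and the day and RA changes of the OE difference in left-out arrays was added after seeing the data. The gene lists planned for named probes were not run.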

Additional observations from a re-analysis of the deposited data

Results flagged for a closer look

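The OE difference was tested for a change between day 2 and day 4, and 18 members had a larger and 1 a smaller difference on day 4. The change was 2.54 for ILMN_13364, 0.81 for ILMN_13668, 0.45 for ILMN_28190 and -0.69 for ILMN_5447. It was also tested between cells with and without RA, where 2 members had a larger and 1 a smaller difference with RA. The change was 0.74 for ILMN_25961, 0.71 for ILMN_6862 and -0.65 for ILMN_13364. Each of these 7 values passed limma's test of the difference in the fit to all arrays, but every group in both tests took part in choosing the members, so they are a description. The call for ILMN_13364 with RA was lost in 15 alternatives and that for ILMN_28190 in 7, and the scrambled arrays of ILMN_13364 were at or under the floor. Groups of 3 arrays are too small for a test of outlying arrays.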

How the results depend on the processing

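Calls of the named members did not reverse in any alternative. Of their values, 587 kept their side of the threshold, 42 lost it, 10 gained it and 0 reversed. A change of sign in a value called in neither fit was counted as kept. Counts of members called moved more, and the cause was not tested except where the stricter filter kept 60 of 110 members. Under it 29 were lower and 1 higher in OE+KD minus OE, 58 higher in OE+KD minus scrambled, 14 higher and 0 lower in OE+KD minus KD, 10 and 0 for the day contrast, and 7 and 3 in scrambled cells. For OE+KD minus OE, a fit to both groups alone gave 3 lower and 1 higher, and median scaling and no filter each gave 1 higher. Median scaling gave 15 and 0 for OE+KD minus KD, 30 larger on day 4, 5 higher in scrambled cells, and 0 smaller with RA. Smaller on day 4 were 2 with offset 16, 2 on the authors' values and 5 in the fit to the 4 groups. Smaller with RA were 0 with offset 16, no filter and the fit to the 4 groups, and 2 on the authors' values. The replicate block gave 43 higher in OE+KD minus KD and 4 smaller on day 4. Deviations of same-numbered arrays correlated above 0.1 in every pair in 3 contrasts. The block changed no other count by more than 1.5 times.

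Leaving out 1 array gave 1 to 2 higher and 33 to 51 lower in OE+KD minus OE, 97 to 102 higher in OE+KD minus scrambled, 15 to 23 higher and 0 to 1 lower in OE+KD minus KD, 11 to 18 larger and 1 to 2 smaller on day 4, 2 to 3 larger and 0 to 2 smaller with RA, and 5 to 8 higher and 8 to 12 lower in scrambled cells. The set held 101 to 120 probes without single arrays, 168 with a bound of 0.6, 109 with a floor of 20, of which 105 were members, and 84 on the limma values, of which 71 were members. Dim probes limit precision, since the offset and the floor compress their differences.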
